A study of Drosophila melanogaster with 2 samples.

Results

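The regions described here come from chromatin immunoprecipitation with the tagged fly protein her. They lie in pericentromeric intervals, set by fixed borders on the stretches of chromosome arms that adjoin the centromere. They were chosen by position alone. A region was a member when its summit, the base of highest signal, lay on 2L from 22 Mb to the end, on 3L from 23.0 Mb to the end, on 3R between the start and 4.2 Mb, or on X from 21.5 Mb to the end, all on the dm6 build. Of 30000 pooled candidate regions 93 were members. Of these, 5 were among the 3930 peaks that passed the authors' threshold on the irreproducible discovery rate, a measure of how alike peaks rank in both replicates. All thresholded peaks had a pooled signal of at least 90.8, and all other regions one of at most 90.7. Passing the threshold thus restates the rank by pooled signal. The remaining 29907 regions of the pooled list served for comparison.

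The samples were 2 biological replicates of 1 group, whole embryos of both sexes aged 0 to 24 h, and no condition was varied. All carried a transgene, stably expressed, that fuses GFP to the C-terminus of her, a protein with zinc fingers that acts in sex determination. Chromatin was sonicated to 200 to 800 bp and precipitated through the GFP with an anti-GFP antibody, and both replicates were set against the same control. No sample of embryos without the tag was analysed here, and signal from whole embryos averages over all tissues and stages. Each region carries a signal value that the authors computed on a scale not stated, so it serves here to rank regions inside 1 list and not across lists, and the 3 lists used (pooled, replicate 1 and replicate 2) each have their own scale. The sources used here do not give the read depth.

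Pericentromeric DNA in Drosophila is packaged as constitutive heterochromatin, marked by methylation of histone H3 at lysine 9 and bound by HP1a, and is built largely of transposons, their remnants and satellite repeats. A set of essential genes nevertheless lies within it and depends on that setting for normal expression, *light* and *rolled* being the classic examples. Heterochromatin also holds most piRNA clusters, loci whose transcripts are cut into the small RNAs that silence transposons in the gonads, among them *flamenco* at the base of X. The data used here hold no mark of heterochromatin, so whether the members lie in it was not tested.

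The strongest regions are shown first because their sequence can be read beside their position. The 4 windows are the dm6 plus strand around the summits of those thresholded members that lie outside annotated exons, each up to 75 bases to either side of the summit, with the first cut where the transcript of *beta-Man* begins. Capitals mark CAGCTG (the E-box letters), TATCGATA (the DNA replication-related element, DRE), TATAAA (the TATA box letters) and CAACACTG, on either strand, and no other letters were marked. The E-box letters lay over the summit at *beta-Man*, from 2 bases before it to 3 after it, and the DRE lay 42 to 49 bases after it. The capitals at the left end of that sequence are TATAAA on the minus strand, 68 to 63 bases before the summit. The intergenic X sequence held CAACACTG on the minus strand, 54 to 61 bases after its summit. In the other 2 windows none of these letters was found.
beta-Man, chr3R:4197074-4197205: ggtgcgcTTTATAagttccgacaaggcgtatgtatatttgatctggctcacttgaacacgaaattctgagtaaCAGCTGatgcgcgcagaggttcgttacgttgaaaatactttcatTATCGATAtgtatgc
intergenic X, chrX:21594035-21594185: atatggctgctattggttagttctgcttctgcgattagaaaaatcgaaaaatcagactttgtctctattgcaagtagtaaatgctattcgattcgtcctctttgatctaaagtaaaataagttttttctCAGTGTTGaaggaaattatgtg
flamenco, chrX:21631607-21631757: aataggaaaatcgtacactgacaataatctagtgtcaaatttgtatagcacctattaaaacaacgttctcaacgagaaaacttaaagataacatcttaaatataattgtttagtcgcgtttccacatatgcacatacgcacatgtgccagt
mir-2491, chrX:22833666-22833816: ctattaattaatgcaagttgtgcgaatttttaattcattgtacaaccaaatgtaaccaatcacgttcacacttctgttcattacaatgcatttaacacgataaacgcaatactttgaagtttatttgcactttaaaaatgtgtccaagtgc

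The region at *beta-Man*, which encodes beta-mannosidase, an enzyme that trims mannose from glycans in lysosomes, was by far the strongest member. It spans chr3R:4196949-4197361, with its summit 57 bp upstream of the transcription start site (TSS). Its pooled signal was 947 (rank 88 of 30000), and the replicates gave 419 (rank 110) in replicate 1 and 527 (rank 77) in replicate 2. The next strongest member had 222. *beta-Man* lies 2.85 kb inside the 3R border, at the outer edge of the interval, so its place among the members turns on where that border is set.

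On X the strongest member, at chrX:21594003-21594193, was intergenic. Its pooled signal was 222 (rank 824), with 118 (rank 861) in replicate 1 and 104 (rank 851) in replicate 2. The nearest annotated TSS, that of lncRNA:CR44711, was 10308 bp away. It was the only thresholded member more than 500 bp from a TSS.

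A pair of thresholded members lay about the shared upstream side of *DIP1* and *flamenco*, which are transcribed away from each other. *DIP1* encodes a nuclear protein with double-stranded RNA-binding domains. Its region, chrX:21629852-21630255, had its summit 94 bp downstream of the TSS, within the first exon. The pooled signal there was 118 (rank 2608), with 57.4 (rank 3290) in replicate 1 and 61.4 (rank 2234) in replicate 2. *flamenco* (lncRNA:flam) is the piRNA source locus that silences the retrovirus-like elements gypsy, ZAM and Idefix in the somatic cells of the ovary. Its region, chrX:21631480-21631883, had its summit 209 bp upstream of the annotated TSS, with a pooled signal of 123 (rank 2406). Replicate 1 gave 61.4 (rank 2937) and replicate 2 gave 59.2 (rank 2384). Both starts thus ranked higher in the list of replicate 2. The body of *flamenco* spans 159 kb on the plus strand at chrX:21631891-21790731. Within it the pooled list held 0 regions, and 20.8% of the positions in that body begin a 31-letter word that occurs once in the genome. The replicates' own lists held weak regions near its start. Replicate 1 had 20.7 at chrX:21631892 and 13.9 (rank 26710) at chrX:21632984, and replicate 2 had 14.1 (rank 24611) at chrX:21633021.

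The last thresholded member, chrX:22833539-22833942, lay 158 bp upstream of the hairpin of the microRNA gene *mir-2491*. Its pooled signal was 117 (rank 2630), with 60.6 (rank 3000) in replicate 1 and 55.2 (rank 2710) in replicate 2. The same position lies within introns of 2 overlapping genes, *fog* on the minus strand and CG42346 on the plus strand. *fog* encodes the secreted ligand that drives apical constriction of cells during gastrulation. The TSS of CG42346 is 1.34 kb away, so the region counts as a promoter one only through the microRNA, and the strand or gene it belongs to cannot be told from its position. A further 5 members, none of them thresholded, followed it where *fog* and CG42346 overlap, with pooled signals from 21.7 to 66.9.

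Below the threshold the strongest members were those at *RpL10*, *l(1)G0196*, *Gfat1*, *Rab21* and CG12576. At *RpL10*, a gene of the large ribosomal subunit on 3L, the summit was 8 bp from the TSS with a pooled signal of 82.6, with 51.0 (rank 4001) in replicate 1 and 30.9 (rank 6957) in replicate 2. *l(1)G0196* encodes a kinase of inositol pyrophosphate synthesis, and its strongest region had 78.2 pooled, 38.9 (rank 6197) in replicate 1 and 41.2 (rank 4357) in replicate 2. *Gfat1*, which encodes the enzyme of the first step of hexosamine synthesis, had 75.5 pooled, 24.8 (rank 12149) in replicate 1 and 47.2 (rank 3525) in replicate 2. *Rab21*, a small GTPase gene of endosomal traffic, had 73.9 pooled, 52.3 (rank 3847) in replicate 1 and 19.5 (rank 15196) in replicate 2. CG12576 had 72.7 pooled, 39.4 (rank 6068) in replicate 1 and 33.2 (rank 6154) in replicate 2. The ranks in the replicates were thus close at CG12576 and far apart at *Gfat1* and *Rab21*. The lowest pooled signal in the thresholded list was 90.8, so all 5 lay under it. Ranked by replicate 1 alone, with as many regions taken as the threshold kept, *Rab21* joined the same 5 regions, and by replicate 2 alone *Gfat1* did.

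**Figure D1:**
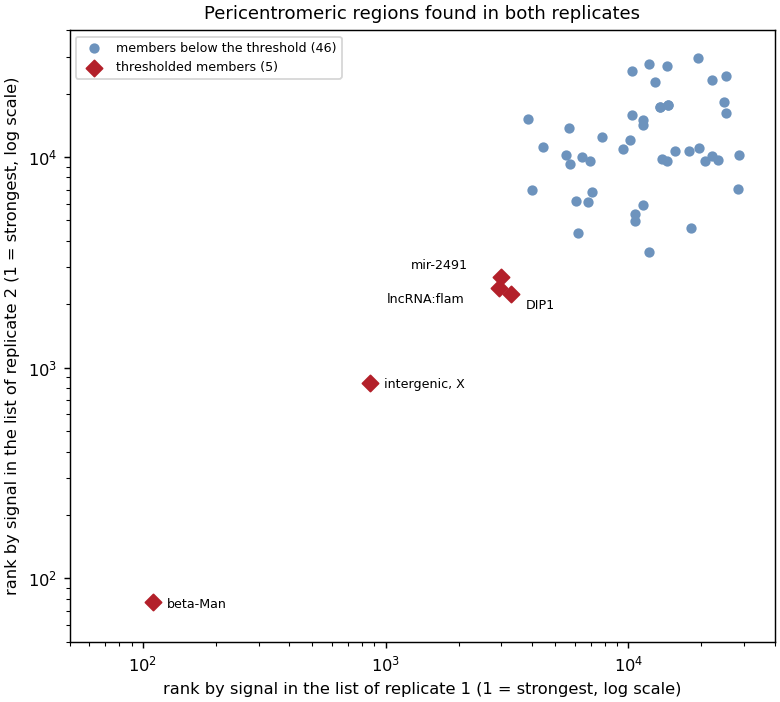
Rank by signal (1 is the strongest, log scales) of the pericentromeric regions found in both replicates. The list of replicate 1 is on the x axis and that of replicate 2 on the y axis. Diamonds are the 5 thresholded members, which have the highest pooled signals, and circles the 46 members below the threshold. beta-Man stands apart at ranks 110 and 77, and the circles spread widely on both axes.

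Members were found in both replicates about as often as other regions. A summit within 200 bp in each replicate's own list was present for 51 of 93 members (54.8%, exact 95% interval 44.2 to 65.2), against 56.2% (55.6 to 56.7) of other regions. A further 20 members were matched only in replicate 1, 16 only in replicate 2 and 6 in neither. All 5 thresholded members were matched in both, as were 99.6% of other thresholded peaks. Thresholded peaks stand apart by pooled signal, which was made from both replicates, so these matches are not independent of the threshold. Below the threshold 46 of 88 members were matched in both (52.3%, 41.4 to 63.0), against 49.6% of other regions. Across the 46 matched members below the threshold Spearman's rho between the replicate signals was 0.257, against 0.353 across 12893 other regions below it. Both are descriptions over regions that share 2 libraries and 1 control. In replicate 1, 5 regions each matched 2 members, so the members are not all separate. The intervals of 22 members overlapped that of another member. These exact intervals, here and below, cover counting error over regions only.

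Fewer of the members passed the threshold than of the list as a whole. The share was 5 of 93 (5.38%, exact 95% interval 1.77 to 12.1), against 3925 of 29907 other regions (13.1%, 12.7 to 13.5), and 13.1% of all pooled regions were called in this way. With each border moved 0.5 Mb away from the centromere the share was 13.9% of 389 regions, and with each moved 0.5 Mb towards it 2.22% of 45, so the share depends on where the borders are set. The median pooled signal was 33.3 among members (range 21.4 to 947) and 36.2 among other regions. Split by the threshold the medians were 123 for the 5 thresholded members, against 138 for other thresholded peaks, and 33.1 for the 88 members below it, against 33.2 for other regions below it. The authors' −log10 q-value stood at its highest listed value, 4.13, for all 5 thresholded members and for 10 of the others, so it separates them less finely than the signal.

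The 93 members were few for the length of DNA, and unevenly spread. The intervals hold 12.87 Mb and had 7.23 pooled regions per Mb, against 254 per Mb over the rest of the same 4 arms. For thresholded peaks the densities were 0.389 and 32.9 per Mb. The 1 Mb of each arm that adjoins its border held 722 regions in all (180 per Mb), 98 of them thresholded. On X the interval had 53 regions in 2.04 Mb (26.0 per Mb) and 4 of the 5 thresholded peaks. On 2L it had 24 regions in 1.51 Mb (15.9 per Mb), none thresholded. On 3R it had 14 regions in 4.2 Mb (3.33 per Mb), with *beta-Man* the only thresholded one. On 3L it had 2 regions in 5.11 Mb (0.391 per Mb), none thresholded. The rest of these arms had 239 regions per Mb on X, 249 on 2L, 247 on 3R and 283 on 3L, and so differed little among themselves.

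**Figure D2:**
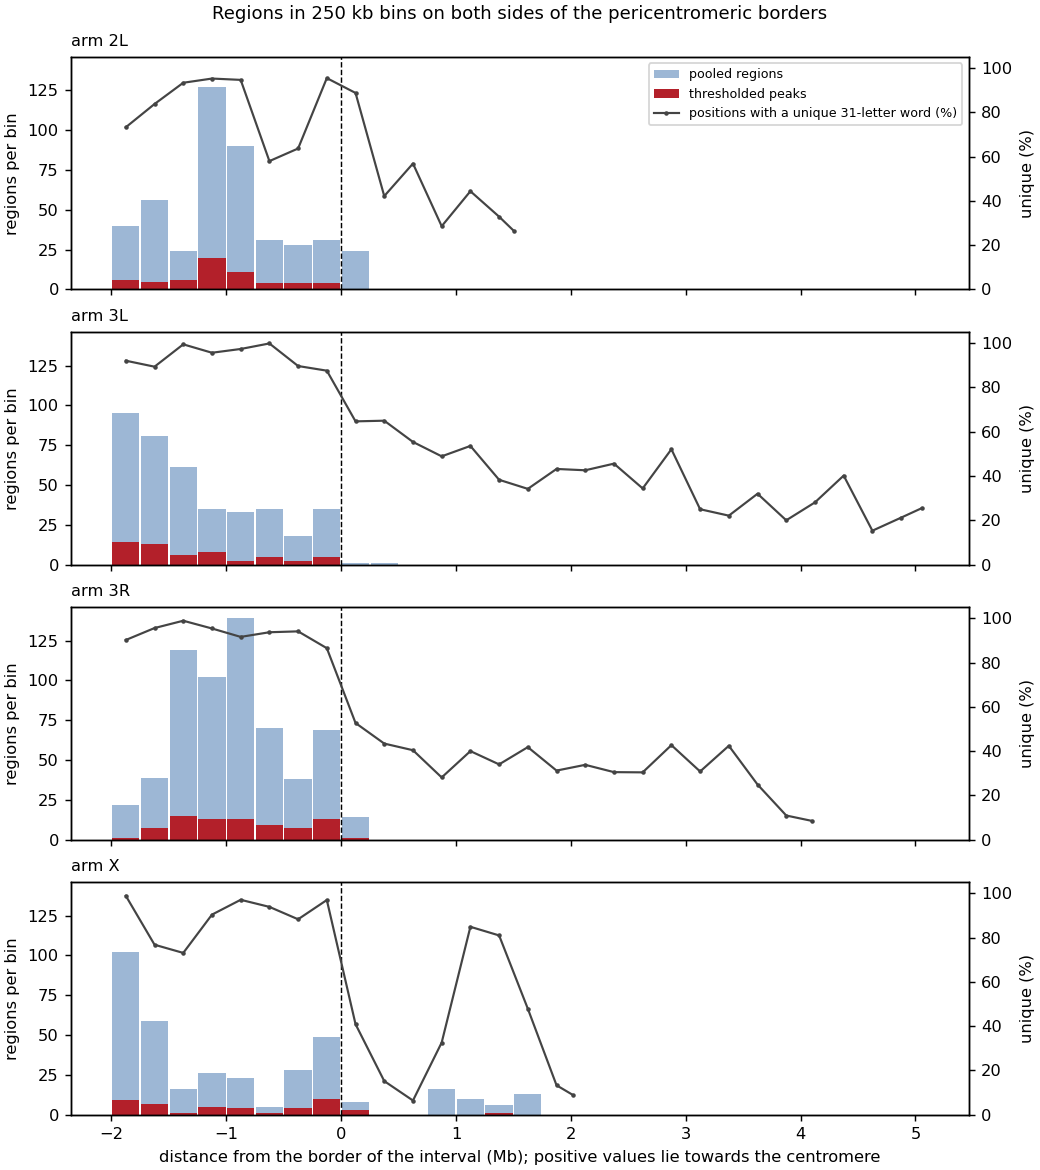
Pooled regions (blue) and, drawn over them, the thresholded peaks among them (red) in bins of 250 kb against the distance in Mb from the border of each interval, with positive distances towards the centromere and the dashed line at the border; the last bin of each arm is shorter. The dark line and the right axis give the percentage of positions whose 31-letter word is unique in the genome. The first bins inside the borders held 24 regions on 2L, 1 on 3L, 14 on 3R and 8 on X, against 31, 35, 69 and 49 in the first bins outside. On X the 4 bins from 0.75 to 1.75 Mb inside the border held 16, 10, 6 and 13 regions, with unique shares of 32.6%, 84.9%, 81% and 47.9%.

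The make-up of the sequence differed between the intervals and the rest of the arms. A read is placed with certainty only where its sequence is found once, and 38.4% of positions in the intervals began a 31-letter word that occurs once in the genome, on either strand, against 95% of positions in the rest of the arms. The share was 48.8% on 2L, 38.8% on 3L, 33.6% on 3R and 39.6% on X. Counted per Mb of unique positions the intervals had 18.8 regions, against 267 in the rest of the arms. Per arm the values inside were 65.5 on X, 32.5 on 2L, 9.91 on 3R and 1.01 on 3L. The sources used here give neither the length of the authors' reads nor how reads with several matches were handled, and the part that read placement plays in the low density was not tested.

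The members themselves lay in unique sequence. Within 200 bp of the summit the median unique share was 100% for members and for other regions, and 92 of 93 members had at least 90%. Repeat-masked bases made up 15.7% of the members' windows on average and 14.1% of those of other regions, although 39.6% of the intervals is masked. A summit fell within an annotated mobile element for 2 of 93 members (2.15%, exact 95% interval 0.262 to 7.55), against 0.247% of other regions. The GC content was 42.7% ± 8.05 (SD over 93 regions) for members and 44.5% ± 7.52 for other regions.

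Members came in 14 groups parted by more than 20 kb, some at a single gene and others along rows of genes. The largest, from chrX:22443482 to 22540323, held 24 regions, none thresholded, with pooled signals from 21.5 to 78.2 and 14 at promoters. Its genes include *wap*, the deubiquitinase gene *Usp2*, the centriole gene *Cp110*, *l(1)G0196* and *S6kII*, a ribosomal S6 kinase gene. The next, from chr2L:22114892 to 22169304, held 23 regions with signals from 21.4 to 66.9. It covers CG3651, *CycK*, which encodes a cyclin partner of a kinase that acts on RNA polymerase II, CG42748, *dunk* and *Clamp*, whose zinc-finger protein binds GA repeats and serves dosage compensation. On 3R 11 regions ran from CG12581 to *beta-Man* over 22.6 kb. On X, 7 regions lay about *stnA*, *Rab21* and *Coa7*, and 6 ran from CG17163 to *su(f)* and *ATbp*. On 2L the single region nearest the centromere was at *RpL21*, with a pooled signal of 50.8, and on 3L it was at *alpha-Cat*, the gene of the catenin that ties cadherin junctions to actin, with 29.8. These genes were named for their place in a group, after their values were seen.

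The members next to each border, and their neighbours outside it, were as follows. On 2L the first region inside lay 115 kb from the border near CG6675 with a signal of 21.4, and the first outside 101 kb away near CG11629 with 91.8, a thresholded peak. On 3L they were *RpL10* at 95.5 kb with 82.6 and lncRNA:CR45758 at 39.7 kb with 22. On 3R the first inside was a weak second region of *beta-Man* at 2.65 kb with 33.1, and the first outside lay at 14.2 kb near CG14636 with 184, thresholded. On X the first inside lay at 90.4 kb near lncRNA:CR44711 with 28.2, and the first outside at 112 kb near *Ddx56* with 35.2. The members furthest inside lay 248 kb from the border on 2L, 338 kb on 3L, 118 kb on 3R and 1606 kb on X. The autosomal members thus all lay near the outer edges of their intervals.

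Beyond those groups lay long stretches with no pooled region. The intervals held 5 runs of more than 400 kb without one. The longest, chr3L:23338181-28110227, covers 4.77 Mb and at least 1 TSS of 29 protein-coding genes, counted likewise for the other runs, with 36.7% of its positions unique. On 3R the first 4.08 Mb held none, with 9 genes and 32.5% unique. On 2L the last 1.27 Mb held none, with 17 genes and 41.0% unique. On X a run of 0.812 Mb that begins next to the *flamenco* summit had 21 genes and 12.3% unique positions, and the last 0.436 Mb had 1 gene and 17.4%. The separate lists of the replicates were nearly as bare there. They held 2 regions of replicate 1 and 3 of replicate 2 on 2L, 1 and 1 on 3L, and 0 and 1 on 3R. In the longer X run both held 3. All those of replicate 1 and all but 1 of those of replicate 2 lay within 1339 bp of the *flamenco* summit, some of them inside the gene. In the last X run both held 0.

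**Figure D3:**
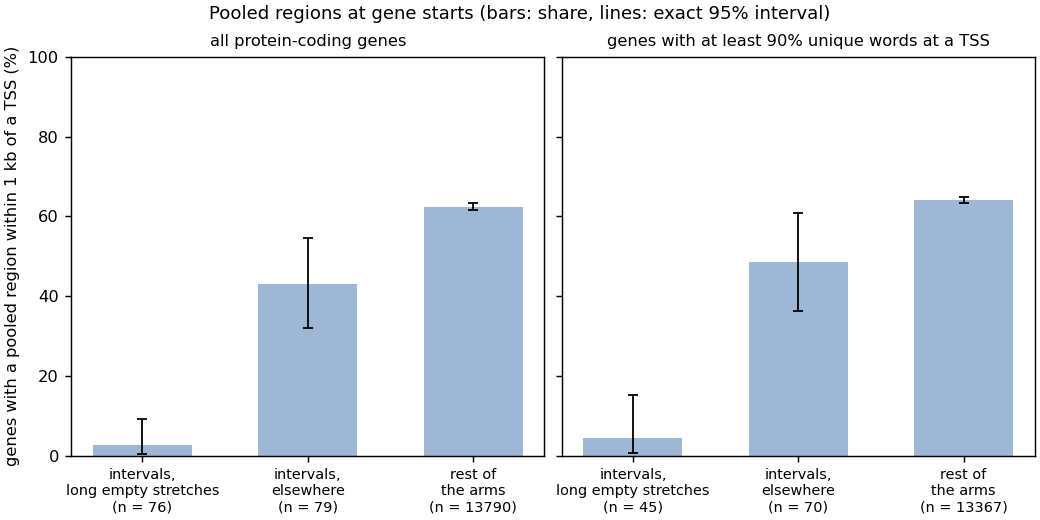
Percentage of protein-coding genes with a pooled region within 1 kb of a TSS (bars) with the exact 95% interval over genes (lines), for the pericentromeric genes inside and outside the long empty stretches and for the rest of the arms; the left panel has all genes and the right panel those with at least 90% unique 31-letter words at a TSS. The shares were 2.63%, 43.0% and 62.5% for all genes and 4.44%, 48.6% and 64.1% for the unique ones. The stretches were drawn from the same pooled list as runs without a region. The low share inside them and the higher share outside them thus follow in part from that choice. Without this split the pericentromeric shares were 23.2% of all genes and 31.3% of the unique ones.

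Seen from the genes, a minority of pericentromeric genes had a region at their start. Of 155 protein-coding genes with a TSS in the intervals, 36 had a pooled region within 1 kb (23.2%, exact 95% interval 16.8 to 30.7), against 8624 of 13790 genes elsewhere (62.5%, 61.7 to 63.3). Over all genes 62.1% were called in this way. The genes elsewhere include those of 2R and chromosome 4. On 2R, which the rule leaves out, the first 4.6 Mb (25 genes) and a later 0.527 Mb (13 genes) also held no pooled region. A thresholded summit within 1 kb was present for 2 of 155, *beta-Man* and *DIP1* (1.29%, 0.157 to 4.58), against 3252 of 13790 elsewhere (23.6%), with 23.3% over all genes. Among genes whose TSS window was at least 90% unique the shares with a pooled region were 36 of 115 (31.3%, 23.0 to 40.6) in the intervals and 64.1% elsewhere. These shares pool the 4 arms, which were not alike.

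On X 25 of 68 genes had a region within 1 kb (36.8%), and of the 40 with unique starts the share was 62.5% (45.8 to 77.3), close to the 64.1% elsewhere. On 2L it was 6 of 37 genes (16.2%), or 18.8% (7.21 to 36.4) of those with unique starts. On 3R it was 3 of 14 (21.4%, 4.66 to 50.8), all 14 with unique starts. On 3L it was 2 of 36 (5.56%), or 6.90% (0.846 to 22.8) of those with unique starts. The longer X run without regions includes a row of 21 genes from CG40813 to CG41562, which spans chrX:22143058-22252414 and whose starts hold at most 20.2% unique words. Of the 36 genes on 3L, 29 had unique starts. The part that read placement plays in these shares was not tested. Counting genes with every TSS inside one of the 5 long stretches, 2 of 76 had a region within 1 kb, *RpL21* and *ATbp* at their very edges, which follows from how the stretches were drawn.

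Of a list of 18 known pericentromeric genes, 15 lay in the intervals, and 3 of these had a region within 1 kb of a TSS. Among all protein-coding genes in the intervals the share was 23.2%, and over all protein-coding genes 62.1%. Lack of a region was thus common in the intervals and not particular to the listed genes. The 3 were *flamenco* and *DIP1*, both thresholded, and *su(f)*, which encodes a factor of mRNA 3′ end cleavage, with a pooled signal of 30.7 at 147 bp. The other 12 had none. On 2L these were *light* (*lt*), a gene of vesicle traffic to lysosomes, *concertina* (*cta*), a G protein alpha subunit gene of gastrulation, and *RpL5*, each between 289 and 734 kb from the nearest pooled summit. On 3L they were *AGO3* of the piRNA pathway at 216 kb, *Snap25* of synaptic vesicle fusion at 736 kb, the histone H3 lysine 4 methyltransferase gene *Set1* at 1769 kb, the cohesin subunit gene *vtd* at 3798 kb, *RpL15* at 3929 kb, the RNA helicase gene *Dbp80* at 3941 kb and the initiation factor gene *eIF4B* at 4520 kb. On 3R they were *Parp1*, the gene of poly(ADP-ribose) polymerase, at 495 kb and the myosin gene *Myo81F* at 3515 kb. The start windows of these 12 genes were 100% unique but for *lt* (98.0%), *AGO3* (87.5%) and *eIF4B* (62.8%). The list has a fixed length of 30000, so an absence says only that a start was not among those regions.

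The pooled list left out some regions that both replicates held. At *RpL5*, a gene of the large ribosomal subunit, replicate 1 had a region with a signal of 37.3 (rank 6606) and replicate 2 one with 25.6 (rank 9587), while the nearest pooled summit was 289 kb away. *RpL15*, another gene of that subunit, was in the list of replicate 2 only, with 25.1 (rank 9940). In the intervals 4 of 49 regions shared by both replicates had no pooled summit within 500 bp (8.16%, exact 95% interval 2.27 to 19.6), against 214 of 16955 elsewhere (1.26%, 1.10 to 1.44). With ranks of at most 10000 in both lists the counts were 2 of 13 and 34 of 6567 (0.518%). How the pooled list came to lack them was not tested.

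Within their groups the members sat at gene starts more often than other weak regions. A summit within 500 bp of a TSS was found for 51 of 93 members (54.8%, exact 95% interval 44.2 to 65.2), against 36.6% (36.0 to 37.1) of other regions. In both groups the TSSs of noncoding RNA genes and pseudogenes counted as well as those of protein-coding genes. Other thresholded peaks lay at promoters in 63.4% of cases and the members held fewer of them, so the regions below the threshold were set apart. There the shares were 47 of 88 (53.4%, 42.5 to 64.1) and 32.5% (32.0 to 33.1). Some promoters held several members, and the 93 members had only 46 nearest genes between them. The members are thus not all separate, and these exact intervals may be too narrow. Introns held 16 of 88 members below the threshold (18.2%, 10.8 to 27.8), against 35.9% of other regions, and intergenic sequence held 5 (5.68%), against 12.2%. Coding exons held 13 (14.8%), against 15.3%. Of the 51 promoter members 24 lay upstream of the TSS (47.1%), against 49.6% of other promoter regions.

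**Figure D4:**
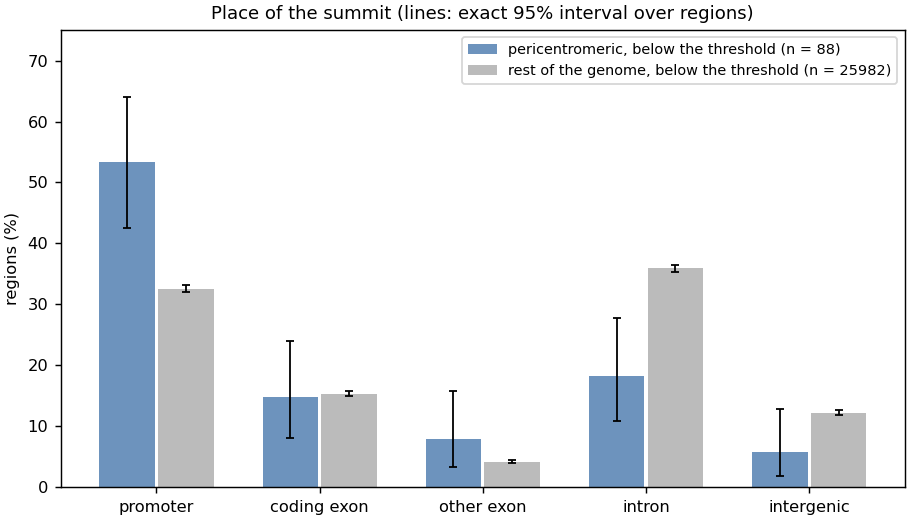
Percentage of regions below the threshold by the place of their summit, with blue bars for the 88 pericentromeric members and grey bars for 25982 other regions, and exact 95% intervals over regions as lines. Promoters held 53.4% of the members and 32.5% of the others, and introns 18.2% and 35.9%.

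The 50 bp to either side of each summit were read on both strands for short words known from fly promoters. TATCGATA was found at 1 of 93 members, *beta-Man* (1.08%), against 1.26% of other regions and 3.62% of other thresholded peaks. CAGCTG was found at 6 members (6.45%), against 6.70% of other regions, GAGAG at 11 (11.8%), against 15%, and TATAAA at 10 (10.8%), against 7.79%. CACGTG was found at 1 member (1.08%), against 1.49%, and TTATCA at 5 (5.38%), against 6.31%. TGGTATTT was found at 3 members (3.23%, exact 95% interval 0.670 to 9.14), against 0.833%, and these lay at CG42748, CG12581 and *GCS2alpha*. GGTCACACT and CATCNCTA were found at 0 of 93, which allows a share of up to 3.89%, against 0.732% and 1.34% of other regions. Only 8-letter words at 1% or more of the thresholded peaks outside the intervals were compared. Among them CAACACTG had the highest ratio of shares (3.41% of those peaks, against 0.562% of regions below the threshold). It was within 50 bp of 1 member, below the threshold, at *Clamp*. At the intergenic X peak it lay a few bases outside that window. For each of these words the exact 95% interval of the share among members included the share among other regions.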

How the data were processed

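Chromatin immunoprecipitation and sequencing of her-GFP embryos gave 2 replicates in 1 group, grouped by their labels. The authors deposited, on dm6 and dm3, relaxed lists of 30000 regions per replicate and for both pooled, and a thresholded list; per the deposited notes all used 1 shared control. Names of an aligner and a peak caller were not given in the sources used here. Each region's deposited signal (scale not stated) and the deposited −log10 q-value were used as given, and ranks follow the signal. Depth is unknown.

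Genes and TSSs came from the Ensembl annotation (release 115) and sequence, repeat masking and mobile elements from the RefSeq genome, both Release 6 (dm6). Coordinates are 1-based. Summits within 200 bp counted as shared, within 500 bp of a TSS as promoter and within 1 kb of a TSS as at a gene. Promoter took precedence over exons, introns and intergenic sequence, in that order. Masking, GC and uniqueness were measured 200 bp to each side of summits or TSSs. Positions were called unique when their 31-letter word occurred once in the genome on either strand; this is not the authors' mappability. Shares have exact (Clopper-Pearson) 95% intervals. With 1 group, no test between samples was possible and no chance test was made. Members, lists and alternatives were chosen with earlier results of these data known, and the uniqueness measure, the 8-letter words and the stretches were added after seeing the data. Genes were named for the 5 thresholded and the 5 strongest other members, the regions next to each border and the listed genes; genes of groups of members were named after their values were seen. A listed gene counted as inside by its TSS. Of 18 listed, *Haspin* lay outside the intervals, *nrm* started just outside and ran into the 3L interval, and *Cht3* had no single match. The intervals named by the rule cover 4 arms. Functions for distances, overlaps, unique words and the rule were checked on simulated data. Python 3.11.15 with numpy 2.4.6, pandas 2.3.3 and scipy 1.17.1 was used.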

Additional observations from a re-analysis of the deposited data

How the results depend on the processing

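Of 48 alternative settings over 9 summary values, 35 left the value within its interval or within 1.5 times the count, and 13 moved it. Moving each border 0.5 Mb towards the centromere left 45 members, 2.22% of them thresholded, and 0.092 thresholded peaks per Mb; moving it 0.5 Mb away gave 389 members, 13.9% thresholded and 3.63 per Mb. With only the stronger 1965 thresholded peaks counted, the density was 0.155 per Mb. With 2 times as many regions taken as called it was 1.55 per Mb, the called share was 21.5% (26.2% of the whole list) and the share of genes with a called summit 10.3%. The share over all genes at this setting is not given here, so that 10.3% has no value beside it. Matching replicates within 100 bp gave 40.9% of members in both lists, and within 500 bp 65.6%. Read in 1 replicate at a time, each on its own scale, the median signal of the thresholded members was 61.4 in either. The called share ran from 6.38% to 6.59%, against 13.1% of each whole list, and the density was 0.466 per Mb. The share of genes ran from 1.94% to 2.58%, with no share over all genes given here for these lists. The list of 1 replicate held 91 or 94 members. The promoter share of the 5 thresholded members was 40% with TSSs of protein-coding genes only, an alternative added after seeing the data. With 5 thresholded members every share over them is imprecise. No paired analysis was possible because all samples belong to 1 group.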

Other observations

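The lists deposited on the older dm3 build, in which heterochromatic sequence was kept as separate scaffolds, were only counted. In the pooled dm3 list of 30000 regions 3 lay on 3RHet, with signals from 22.7 to 75.5, and 7 on XHet, with signals from 20.4 to 59.0. The unplaced scaffolds U and Uextra held 2 regions each. Of the 4390 thresholded dm3 peaks 0 lay on any of these scaffolds.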
